A study of Mus musculus with 16 samples.

Results

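The mouse mitochondrial genome, a circle of 16299 bp named chrM in the mm10 (GRCm38) assembly, holds 37 genes, of 55450 annotated genes in all. The members were every gene annotated on chrM, and each deposited peak on chrM was given to every gene it overlapped by at least 1 bp. The peaks mark DNA enriched with an antibody against 5-hydroxymethylcytosine (5hmC, antibody HMC31) in bone marrow cells positive for c-kit, a receptor on the surface of blood progenitors. Every animal was NHD13, a line with a NUP98-HOXD13 fusion transgene that is used as a model of myelodysplastic syndrome. The knockout group also lacked Tet2 (labelled NHD13/TET2-KO), and the control group carried NHD13 alone. The transgene therefore acted in both groups, and no group without it was included. The labels give no age, sex or number of mice, and do not say how Tet2 was deleted or whether cells of several mice were combined. There were 12 peak lists from 4 DNA library numbers, each immunoprecipitated in 3 pools: numbers 1 and 7 from knockout and numbers 3 and 5 from control. The libraries of 1 pool shared an immunoprecipitation, since adapter-ligated fragments were combined ahead of the antibody. The 4 input libraries were not analysed here.

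The mitochondrial genome is present in many copies per cell and is transcribed as long precursors from promoters in the control region, where replication of the heavy strand also starts. The precursors are cut, largely at the tRNA genes that lie between the others, into rRNAs, tRNAs and mRNAs for subunits of the respiratory chain and the ATP synthase. TET enzymes oxidise 5-methylcytosine to 5hmC in nuclear DNA, and Tet2 is often lost in myeloid neoplasms. Whether mitochondrial DNA carries the mark at all is disputed in the field. A peak list reports where reads exceeded a local background, so the number of mitochondrial genomes per cell and the amount of 5hmC per genome cannot be told apart in these lists.

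The lists were permissive, and most mitochondrial peaks were weak. Of 7582 peaks in the 12 lists, 107 (1.41%) lay on chrM, which makes up 0.00059801% of the assembly. There were 54 in knockout lists and 53 in control lists. These counts take no account of length, since the 5 peaks of control number 5 pool 3 alone covered 87.3% of chrM. The authors' p-value reached 0.296 on chrM, 66 of the 107 peaks had p under 0.05, and 23 had p under 0.01 (6 knockout, 17 control). Only 3 mitochondrial peaks had a q-value under 0.05, all in the control list of number 5 in pool 3, and the other 104 had a deposited q-value of 1. Over all chromosomes, 320 of the 7582 peaks had a q-value under 0.05, so few peaks of any kind passed this limit. For the p limits no count over all peaks is given here. Read depth is not given in the files, and Wilson 95% intervals below cover counting error of the peaks only. The list of control number 5 in pool 3 stood apart from the others on chrM, so results that rest on it are also given without it. The knockout list of number 1 in pool 2 had no mitochondrial peak.

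Sequences are from the RefSeq GRCm38.p6 assembly, written 5′ to 3′ on the plus strand of chrM unless stated, with CpG dinucleotides (C followed by G, on either strand) in capitals. The first set shows the bases that entered most lists and the bases that entered none. No base of chrM was inside peaks of more than 8 lists, and 114 bases (0.699%) reached 8. The longest such run was 63 bp in mt-Nd5, and it held no CpG. Of the 165 bases (1.01%) inside no peak of any list, the longest run was 83 bp over the end of mt-Co1 and the start of mt-Ts1, and it held 1 CpG. The size of the uncovered part rested on 1 list: without control number 5 pool 3, 1592 bases (9.77%) were inside no peak, and the longest such run was 417 bp in mt-Nd5 (chrM:12545-12961). Without that list the same 63 bp of mt-Nd5 remained the longest run at the most lists, then 7. The sequences at the summits of the highest-fold peak of each genotype come next, for the control with and without control number 5 pool 3.
chrM:11941-12003, in peaks of 8 lists: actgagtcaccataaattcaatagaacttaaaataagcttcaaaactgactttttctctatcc
chrM:6803-6885, in peaks of no list: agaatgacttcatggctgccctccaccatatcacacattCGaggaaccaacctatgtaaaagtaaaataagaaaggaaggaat
chrM:12997-13097, around the highest control summit (number 5 pool 3), in mt-Nd5: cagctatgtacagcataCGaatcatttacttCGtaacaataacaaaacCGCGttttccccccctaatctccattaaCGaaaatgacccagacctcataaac
chrM:140-240, around the highest control summit without number 5 pool 3, in mt-Rnr1: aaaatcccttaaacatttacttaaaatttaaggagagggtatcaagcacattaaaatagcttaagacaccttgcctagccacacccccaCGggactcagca
chrM:8373-8473, around the highest knockout summit, in mt-Atp6: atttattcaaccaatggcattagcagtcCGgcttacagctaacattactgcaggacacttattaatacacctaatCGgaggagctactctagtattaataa
The window at the highest control summit, from the list that stood apart, held 5 CpGs, a number reached by 6.04% of all chrM windows of 101 bp. The window at the highest control summit of the other lists held 1, reached by 77.3%. The window at the highest knockout summit held 2, reached by 49.0% of such windows. This knockout window lies in the part of chrM matched by a long nuclear copy, described below.

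Every one of the 37 genes was inside a mitochondrial peak in at least 1 list, against 4.2% of all annotated genes. With the control list of number 5 in pool 3 left out, 36 genes remained in at least 1 list, since mt-Tk was found there only. At least 6 of the 12 lists held 16 of the 37 genes (43.2%), against 0.123% of all genes, and 52 genes outside chrM reached that number. Of the 16 genes, mt-Tv, mt-Ty, mt-Co1, mt-Nd3 and mt-Tp reached 6 lists only through control number 5 pool 3. Without it each was in 5 lists, and the share of all genes was not counted without it. These shares share peaks: 49 of the 107 peaks overlapped several genes, and the space between genes outside the control region came to only 57 bp. By summit, 65 peaks fell in protein-coding genes, 21 in rRNA genes, 11 in tRNA genes and 10 in the control region.

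**Figure D1:**
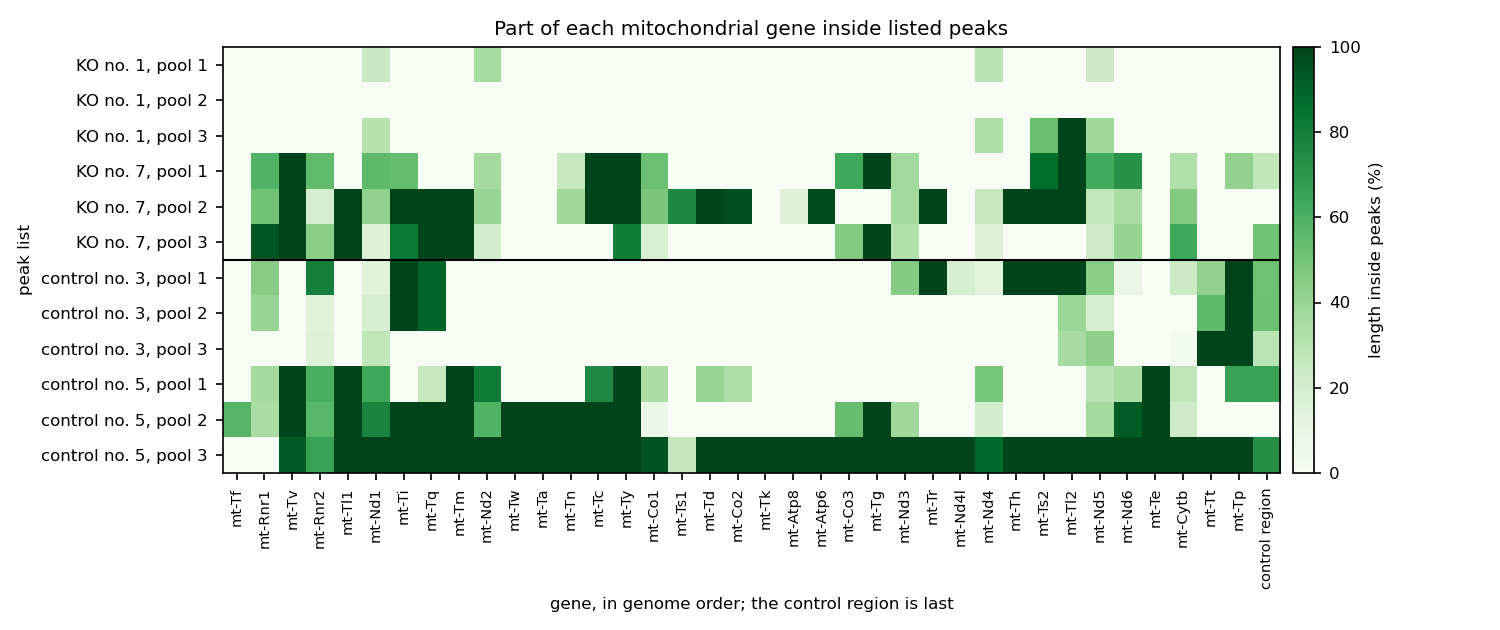
Percent of the length of each mitochondrial gene (columns, in genome order, with the control region last) that lay inside listed peaks, for each of the 12 peak lists (rows, with a line between the genotypes). The row of control number 5 in pool 3 is filled over nearly the whole genome (87.3% of its bases), and that of knockout number 1 in pool 2 is empty.

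The rRNA genes encode the RNAs of the mitochondrial ribosome. mt-Rnr1 (ENSMUSG00000064337.1, chrM:70-1024, plus strand), the small-subunit RNA, was overlapped in 7 lists, 3 knockout and 4 control. For knockout number 7, 58.3%, 51.0% and 93.9% of mt-Rnr1 lay inside peaks in pools 1, 2 and 3. For control number 5 the values for mt-Rnr1 were 36.6%, 35.0% and 0%, and in control number 3 they were 44.6%, 40% and 0%. mt-Rnr1 had no peak in any list of knockout number 1, and was also without one in the list of number 5 in pool 3, whose peaks covered most other genes. The genotypes overlapped, because the knockout lists held both the highest mt-Rnr1 values and 3 of 0%.

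mt-Rnr2 (ENSMUSG00000064339.1, chrM:1094-2675, plus strand), the large-subunit RNA, was overlapped in 9 lists, 3 knockout and all 6 control lists. The control values for mt-Rnr2 were 79.5%, 13.8% and 15.9% for number 3 and 60.6%, 56.8% and 65.7% for number 5. Those for knockout number 7 were 55.0%, 19.1% and 44.1%, within the control range. All 3 lists of knockout number 1 were at 0% for mt-Rnr2. One of the 4 runs that reached 8 lists lay near the start of this gene (chrM:1115-1136, 22 bp).

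Complex I is the entry point of electrons from NADH, and its 7 mitochondrial subunits included the genes with the widest occurrence. mt-Nd1 and mt-Nd5 were each overlapped in 11 lists, 5 knockout and 6 control, which is every list with a mitochondrial peak. mt-Nd1 (ENSMUSG00000064341.1, chrM:2751-3707, plus strand) was covered to 24.5%, 0% and 30.3% in knockout number 1 and to 55.3%, 41.8% and 14.9% in knockout number 7. In control number 3, mt-Nd1 was covered to 14.1%, 18.7% and 27.0%, and in control number 5 to 63.6%, 77.4% and 100%. For mt-Nd1, the 2 control numbers thus did not overlap each other, while the genotypes did.

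mt-Nd5 (ENSMUSG00000064367.1, chrM:11742-13565, plus strand), the longest gene of the genome, held 16 of the 107 summits. Its cover in the knockout was 22.7%, 0% and 37.4% for number 1 and 62.2%, 26.3% and 22.5% for number 7. In the control, mt-Nd5 was covered to 43.9%, 19.1% and 42.4% for number 3 and to 29.99%, 36.5% and 100% for number 5. Knockout and control values overlapped, with the knockout 0% below all control values and the control 100% above all knockout values. Of the 4 runs shared by 8 lists, 3 lay in mt-Nd5, at chrM:11762-11780, chrM:11941-12003 (printed above) and chrM:13367-13376. Around the first 2 of these, 373 bp from mt-Tl2 into mt-Nd5 (chrM:11717-12089) lay inside peaks of at least 7 lists.

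The other complex I genes were seen in fewer lists. mt-Nd4 was overlapped in 8 lists (4 knockout, 4 control), mt-Nd2 in 7 (4 and 3), mt-Nd6 in 7 (3 and 4), mt-Nd3 in 6 (3 and 3) and mt-Nd4l in 3 (1 and 2). mt-Nd6 is the single protein-coding gene read from the other strand. In mt-Nd4l the cover was 100% in control number 5 pool 3, 18.2% in control number 3 pool 1 and 0.337% in knockout number 7 pool 2, so the last of these was the edge of a peak.

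mt-Cytb, which encodes the cytochrome b of complex III, was overlapped in 8 lists, 3 knockout and 5 control. All knockout lists with mt-Cytb were of number 7 (32.7%, 46.1% and 63.5%), and the control values were 23.4%, 0% and 2.45% for number 3 and 27.7%, 22.03% and 100% for number 5. Of the complex IV (cytochrome c oxidase) genes, mt-Co1 was overlapped in 6 lists (3 knockout, 3 control), mt-Co3 in 4 (2 and 2) and mt-Co2 in 3 (1 and 2). All these lists were of numbers 5 and 7. No list of number 1 or number 3 had a peak over any of the 3 complex IV genes.

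The genes of the ATP synthase (complex V) were in the fewest lists of the coding genes. mt-Atp8 (ENSMUSG00000064356.3, chrM:7766-7969) and mt-Atp6 (ENSMUSG00000064357.1, chrM:7927-8607) overlap each other and were found in 2 lists each, 1 per genotype. In control number 5 pool 3 both were covered to 100%. In knockout number 7 pool 2, mt-Atp6 was covered to 97.9% and mt-Atp8 to 15.2%, under 1 peak (chrM:7939-8605, summit 8423). That peak had a fold of 2.48, the highest of any mitochondrial peak in the knockout. It lay in the part of chrM matched by a long nuclear copy, described below, whose reads cannot be placed apart where the sequences are equal.

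The 22 tRNA genes are short, and one was overlapped in 1 to 7 lists (median 4), against 2 to 11 (median 6) for the 13 coding genes. mt-Ti (isoleucine), mt-Tq (glutamine) and mt-Tl2 (a leucine tRNA) were each in 7 lists, followed by mt-Tv (valine), mt-Ty (tyrosine) and mt-Tp (proline) in 6. The fewest lists were 1 for mt-Tf (phenylalanine) and mt-Tk (lysine), and 2 for mt-Tw (tryptophan), mt-Ta (alanine) and mt-Ts1 (a serine tRNA). mt-Tf was found only in control number 5 pool 2, where 57.4% of it lay inside a peak.

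A set of 6 genes, all tRNAs, had a peak in control lists and in no knockout list: mt-Tf, mt-Tw, mt-Ta, mt-Tk, mt-Te (glutamate) and mt-Tt (threonine). That was 16.2% of the members, against 1.35% of all genes, and the shares are hard to set side by side because most genes were in no list at all. No member had a peak in a knockout list and in no control list, against 2.28% of all genes. mt-Te was covered to 100% in all 3 lists of number 5 and in no other list. mt-Tt was covered to 41.8%, 55.2% and 100% in number 3, to 100% in number 5 pool 3 and to 0% elsewhere. Of the control-only genes, mt-Tt was thus the single one also seen in number 3, and the others rested on number 5 alone.

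The neighbouring tRNA gene mt-Tp (proline, ENSMUSG00000064372.1, chrM:15356-15422, minus strand) borders the control region and was chosen after its values were seen, like mt-Te and mt-Tt. It was overlapped in 6 lists, 1 knockout and 5 control. All 3 lists of control number 3 covered mt-Tp to 100%, those of control number 5 to 65.7%, 0% and 100%, and knockout number 7 pool 1 to 41.8%. The remaining knockout lists were at 0%, so the genotypes overlapped only through control number 5 pool 2 and knockout number 7 pool 1. Its sequence is shown because it joins the control region to the gene block, and it holds no CpG.
mt-Tp, minus strand: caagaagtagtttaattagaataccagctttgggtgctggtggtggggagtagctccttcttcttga

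The control region (chrM:15423-16299, 877 bp) carries the promoters and the heavy-strand origin and encodes no gene. It was overlapped in 7 lists, 2 knockout and 5 control. In control number 3, 51.3%, 51.8% and 28.8% of the control region lay inside peaks, and in control number 5 the values were 65.9%, 0% and 74.6%. In knockout number 7 the values were 27.1%, 0% and 51.0%, and all 3 lists of knockout number 1 were at 0%. The knockout values were 0% in 4 of 6 lists and the control values in 1 of 6, and the groups overlapped.

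Elements annotated in the control region and the origin of the light strand are shown because they mark where replication of each strand is started or paused. The extended termination-associated sequence 1 (ETAS1) was inside or touched by peaks in 6 lists, 1 knockout and 5 control. The conserved sequence blocks CSB1, CSB2 and CSB3 were touched in 3, 4 and 3 lists, all control. Only 2 knockout lists had any peak in the control region, and that of number 7 pool 3 ended at chrM:16033, just before CSB1 (chrM:16035-16058). The light-strand origin, between tRNA genes, was touched in 4 lists, 2 of each genotype. Its 32 bp held 3 CpGs, a number reached by 2.74% of all chrM windows of that length.
ETAS1, chrM:15451-15509: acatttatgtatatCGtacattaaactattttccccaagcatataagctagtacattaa
Light-strand origin, chrM:5160-5191: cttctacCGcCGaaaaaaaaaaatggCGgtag

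The mitochondrial share of a list was highest in the shortest lists, those of control number 3. In control number 3, chrM held 10 of 47 peaks (21.3%, interval 11.99 to 34.9%), 6 of 15 (40%, interval 19.8 to 64.3%) and 5 of 9 (55.6%, interval 26.7 to 81.1%) in pools 1, 2 and 3. For control number 5 the counts were 15 of 2337 peaks (0.642%, interval 0.389 to 1.06%), 12 of 243 (4.94%, interval 2.85 to 8.43%) and 5 of 246 (2.03%, interval 0.871 to 4.67%). Both libraries were control, and their shares did not overlap in any pool.
In knockout number 1, chrM held 4 of 130 peaks (3.08%, interval 1.20 to 7.64%), 0 of 49, which allows a share of up to 6.12%, and 4 of 56 (7.14%, interval 2.81 to 17.0%). For knockout number 7 the counts were 17 of 3924 peaks (0.433%, interval 0.271 to 0.693%), 15 of 270 (5.56%, interval 3.40 to 8.96%) and 14 of 256 (5.47%, interval 3.29 to 8.97%). The number of mitochondrial peaks in number 7 thus stayed between 14 and 17 while the list length changed from 256 to 3924. In all 11 lists with a mitochondrial peak, chrM had more peaks per megabase than any other chromosome. That followed from its length of 16299 bp, on which a single peak is enough. The highest density of another chromosome in any list was 1.76 peaks per megabase, in knockout number 7 pool 1.

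**Figure D2:**
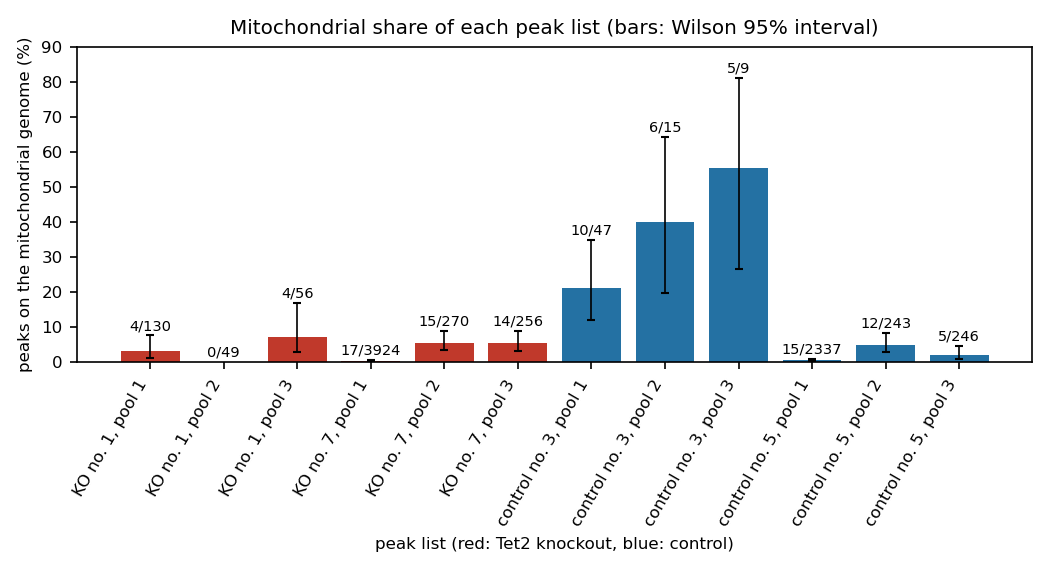
Share of the peaks of each list that lay on the mitochondrial genome, in percent, with Wilson 95% intervals, for the 6 knockout lists (red) and the 6 control lists (blue). The 3 lists of control number 3 lie at 21.3% to 55.6%, above all others, which lie at 0 to 7.14%.

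Averaged over the 3 pools, the share of peaks on chrM was 38.9% ± 17.2 (SD over pools) in control number 3, 2.54% ± 2.19 in control number 5, 3.41% ± 3.58 in knockout number 1 and 3.82% ± 2.93 in knockout number 7. Over the 2 library numbers of each genotype, the share averaged 3.61% ± 0.292 for knockout and 20.7% ± 25.7 for control (SD, n = 2). The difference, knockout minus control, was -17.1 percentage points (two-sided exact permutation test, p = 1). With 2 library numbers per genotype this test has 6 arrangements and its smallest p is 0.33, so it could not reach 0.05 in any comparison. Without number 3 the difference was 1.08 percentage points, so for counts of peaks its sign rested on that library. As a share of the length of all peaks in a list, chrM took 45.7% in control number 3, 6.36% in control number 5, 3.89% in knockout number 1 and 3.78% in knockout number 7, a difference of -22.2 percentage points (two-sided exact permutation test, p = 0.333, the smallest it can give). By length the difference was -2.52 percentage points without number 3. Without the list of control number 5 in pool 3, number 5 stood at 3.46% by length, below both knockout numbers.

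Within each genotype, the length of chrM inside peaks differed between library numbers. Peaks covered 8.76%, 0% and 9.41% of chrM in knockout number 1 and 39.1%, 38.5% and 31.6% in knockout number 7. In the control they covered 26.1%, 11.3% and 10.6% in number 3 and 38.6%, 35.8% and 87.3% in number 5. Covered length averaged 21.2% ± 21.5 of chrM for knockout and 34.9% ± 26.8 for control (SD, n = 2), a difference of -13.7 percentage points that was smaller than the spread within either genotype (two-sided exact permutation test, p = 0.667). Without the list of control number 5 in pool 3 the difference was -5.37 percentage points. Leaving out number 1 gave 1.48 and leaving out number 5 gave 5.24 percentage points.

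Of the 37 genes, 4, 0 and 5 had a peak in knockout number 1 and 19, 28 and 18 in knockout number 7. In the control, 17, 9 and 7 genes had a peak in number 3 and 19, 24 and 35 in number 5. Knockout averaged 12.3 ± 13.2 genes and control 18.5 ± 10.6 (SD, n = 2), a difference of -6.17 genes (two-sided exact permutation test, p = 0.667). In more control than knockout lists were 24 genes, in more knockout lists 2 (mt-Nd2 and the serine tRNA gene mt-Ts2), and 11 were in equal numbers. Without the control list of number 5 in pool 3 the difference in genes per list was -3.92. With 5 control lists against 6 knockout lists, 23 genes were then in a higher share of control lists, 13 in a higher share of knockout lists and 1 in an equal share.

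Peak strength on chrM was low. The deposited fold is the authors' ratio of the summit to the local background. The median fold of the mitochondrial peaks was 1.38 and 1.42 in knockout number 1 (pools 1 and 3), 1.60, 1.74 and 1.70 in knockout number 7, 1.40, 1.16 and 1.29 in control number 3, and 1.89, 1.88 and 4.75 in control number 5. The other peaks of the same lists had medians of 1.57 and 1.31 for knockout number 1, 1.70, 1.78 and 1.81 for knockout number 7, 1.37, 1.33 and 1.22 for control number 3 and 1.89, 1.87 and 1.85 for control number 5. The mitochondrial median was above that of the other peaks in 5 of 11 lists and stood furthest above it in control number 5 pool 3.

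The highest mitochondrial fold per list was 1.59 and 1.55 in knockout number 1, 2.11, 2.48 and 2.29 in knockout number 7, 1.76, 1.37 and 1.34 in control number 3, and 2.35, 2.55 and 5.39 in control number 5. Averaged over library numbers, it was 1.93 ± 0.511 for knockout and 2.46 ± 1.37 for control (SD, n = 2), a difference of -0.529 (two-sided exact permutation test, p = 1). The empty list of number 1 in pool 2 was left out of its mean. Without control number 5 pool 3 the difference was -0.0393, and without the whole of number 5 it was 0.441. In each pool, the highest folds of numbers 5 and 7 lay above those of numbers 1 and 3, except that number 1 had none in pool 2. The highest folds thus also followed the library number. The fold depends on the background, whose median at these peaks was 12.3 in knockout number 1 pool 1. It was 1.42 to 4.30 in the lists of numbers 5 and 7 and was not worked back for number 3. Whether the background accounts for this order was not tested.

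**Figure D3:**
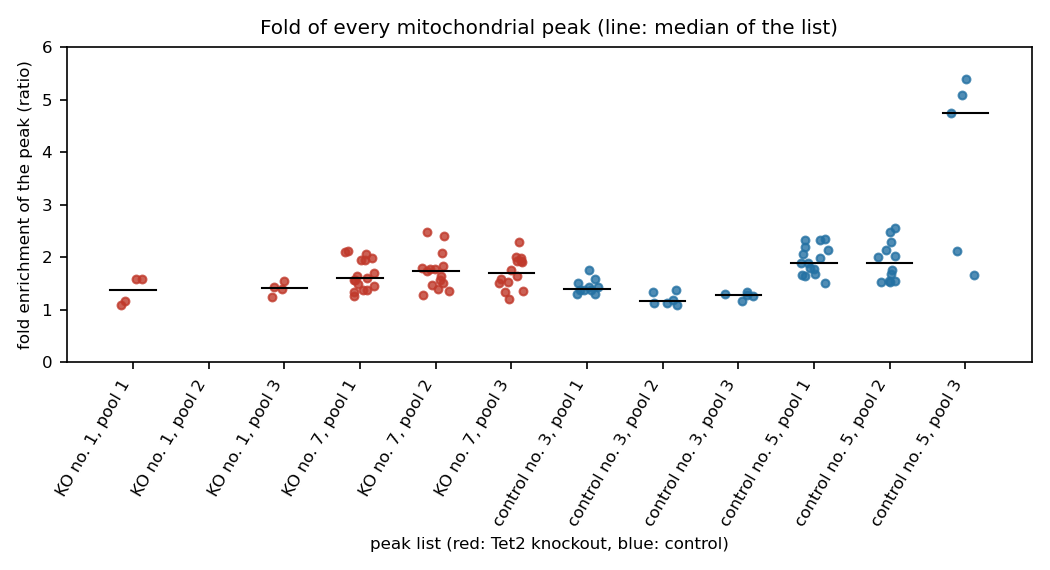
Deposited fold enrichment (a linear ratio) of every mitochondrial peak in each list, with the median of the list as a line, for knockout lists (red) and control lists (blue). In control number 5 pool 3, 3 peaks lie at 4.75 to 5.39, and the highest peak of any other list is at 2.55.

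The gene under the strongest peak differed between lists. In control number 3 the highest fold was in the control region in pool 1 (chrM:15958-16172, summit 16028), in mt-Rnr1 in pool 2 (chrM:128-509, summit 403) and in mt-Nd5 in pool 3 (chrM:11717-12194, summit 11878). For control number 5 it was in mt-Nd2 in pool 1 (chrM:3825-4754, summit 3920), in mt-Rnr1 in pool 2 (chrM:30-283, summit 190) and in mt-Nd5 in pool 3 (chrM:10587-15876, summit 13047). In knockout number 1, pool 1 had equal folds in mt-Nd4 (chrM:11007-11413) and mt-Nd5 (chrM:11941-12354), and pool 3 had its highest in mt-Nd5 (chrM:11641-12120, summit 11988). In knockout number 7 it was in mt-Rnr1 in pool 1 (chrM:668-1398, summit 916), in mt-Atp6 in pool 2 (summit 8423) and in mt-Co3 in pool 3 (chrM:8686-9026, summit 8883). The peaks in mt-Atp6 and mt-Co3 lay in the part of chrM matched by a long nuclear copy, described below. Of the library numbers with a mitochondrial peak in all 3 pools, none had its strongest peak in the same gene throughout. Knockout number 1 had only 2 lists with a mitochondrial peak. In both, mt-Nd5 was at the highest fold, in pool 1 together with mt-Nd4.

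Control number 5 pool 3 had 5 peaks that together spanned nearly the whole circle. The longest, of 5290 bp, ran from mt-Nd4 into the control region (fold 5.39, −log10 q 7.88). The next, of 4322 bp, ran from mt-Rnr2 into mt-Co1 (chrM:2481-6802, summit 6317, fold 5.09, −log10 q 5.81). The third, of 3502 bp, ran from mt-Ts1 into mt-Nd4 (chrM:6921-10422, summit 9864, fold 4.75, −log10 q 3.82). The other peaks were in mt-Rnr2 and mt-Tv (chrM:1030-1938, fold 1.66) and in the control region (chrM:16059-16258, fold 2.11). Pools 1 and 2 of the same library number had many short peaks instead, with the highest folds at 2.35 and 2.55.

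Fragment numbers could be worked back from fold and p in 7 lists. A mitochondrial summit stood on 15 to 18 fragments in knockout number 1 pool 1, on 2 to 5 (median 4) in knockout number 7 pool 1, and on 5 to 11 (median 8) and 5 to 10 (median 8.5) in its pools 2 and 3. In control number 5 the numbers were 3 to 5 (median 4), 5 to 10 (median 8) and 7 to 25 (median 17). The median expected background at the mitochondrial peaks was 12.3 in knockout number 1 pool 1, 1.77, 4.30 and 4.21 in knockout number 7 and 1.42, 3.50 and 3.32 in control number 5. Most mitochondrial peaks of numbers 5 and 7 therefore rested on a few fragments above a background of 1 to 5. The other peaks of these lists had median summits of 44 fragments in knockout number 1 pool 1, 3, 11 and 11 in knockout number 7 and 3, 12 and 11 in control number 5.

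Repeat immunoprecipitations of 1 library had a higher median overlap than other pairs of lists, though the ranges overlapped. The overlap of 2 lists is given as bases shared over bases covered by either. Over the 10 pairs of the same library number in other pools it was 19.1 to 39.5% (median 28.1%). Over the 30 pairs of other number and other pool it was 2.41 to 39.0% (median 11.5%). Within a pool, 5 pairs of other libraries of the same genotype had a median of 10.2% (6.06 to 21.7%), and 10 pairs of the other genotype had a median of 14.8% (7.53 to 37.3%). The pairs share lists and so have no test, and the overlap also follows how much each list covers.

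A long nuclear copy of mitochondrial DNA matched part of the genome. Reads from such copies (nuclear mitochondrial segments) and from the mitochondrion cannot be placed apart where the sequences are equal. The reference held 47 nuclear copies of at least 100 bp and 80% identity, and 1 of them overlapped peaks. It lies on the minus strand of chr1:24611535-24616188 (4654 bp) and matches chrM:6390-11042, 28.5% of chrM, at 99.936% identity with 2 mismatches and 1 gap. It contains mt-Ts1, mt-Td, mt-Co2, mt-Tk, mt-Atp8, mt-Atp6, mt-Co3, mt-Tg, mt-Nd3, mt-Tr and mt-Nd4l whole, and parts of mt-Co1 and mt-Nd4. Of all words of 50 bases from this part of chrM, 97.9% occurred unchanged in a nuclear copy, against 11.3% of those from the rest. One of the mismatches, T9461C in mt-Nd3 (the chrM base first, its position counted from the first base of chrM, then the base of the copy), is shown in capitals to let the sequences be compared.
chrM:9436-9486: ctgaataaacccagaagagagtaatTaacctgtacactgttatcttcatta
Nuclear copy: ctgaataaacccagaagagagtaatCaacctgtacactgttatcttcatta

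The copied part of chrM was covered less than the rest. Averaged over the 12 lists, 17.3% of the copied part and 32.4% of the rest lay inside peaks, and without control number 5 pool 3 the values were 10.3% and 27.7%. The copied part held 15 summits and the rest 92. The 11 genes that lie whole in the copied part were in 1 to 6 lists (median 3), and the other 26 genes in 1 to 11 (median 6). The cover was lower in the copied part in 9 of 11 lists. The exceptions were knockout number 7 pool 2 (40.9% against 37.6%) and control number 5 pool 3 (93.9% against 84.6%). This is a description of 1 stretch of the genome, with no test.

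**Figure D4:**
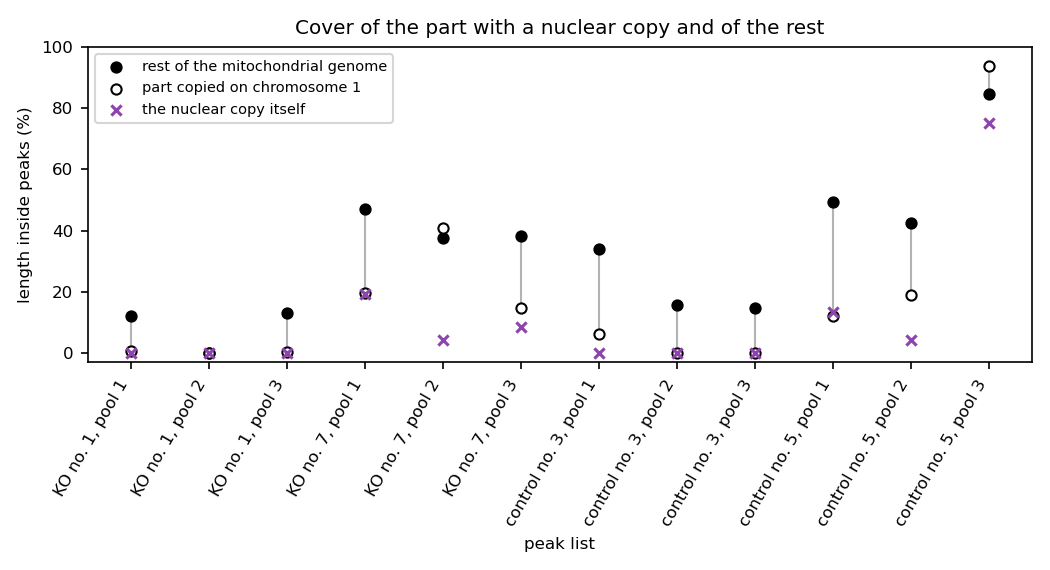
Percent of length inside peaks in each list for the part of the mitochondrial genome with a near-identical copy on chromosome 1 (open circles), the rest of the mitochondrial genome (filled circles) and the copy on chromosome 1 itself (crosses). The open circle lies below the filled circle in 9 of 11 lists, and the copy has peaks in the lists of numbers 5 and 7 only.

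In knockout number 7, 19.7%, 40.9% and 14.7% of the copied part lay inside peaks, and for control number 5 it was 12.01%, 19.1% and 93.9%. In number 3 the values were 6.06%, 0% and 0%, and in knockout number 1 they were 0.774%, 0% and 0.279%. The copy on chromosome 1 was itself covered to 19.4%, 4.30% and 8.59% in knockout number 7 and to 13.4%, 4.30% and 75.2% in control number 5, and to 0% in numbers 1 and 3. In control number 5 pool 3 the copy carried 5 peaks with folds of 2.11 to 3.69, so the list in which chrM was nearly filled was also the one in which the copy was.
In the median, the background worked back from fold and p was lower in the copied part too. Divided by the lowest background of the list, its median was 1.06, 1.05 and 1.06 inside and 1.37, 1.36 and 1.31 outside in knockout number 7. In control number 5 it was 1.07, 1.003 and 1 inside and 1.27, 1.24 and 1.28 outside. The values inside rested on only 3, 4 and 2 summits in knockout number 7 and on 2, 2 and 1 in control number 5. In knockout number 7 pool 2 the highest value inside, 1.36, was equal to the median outside. Whether the copy lowered the number of reads placed in this part of chrM was not tested.

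In most lists the covered parts were not richer in CpG or GC than the rest. The chrM sequence holds 287 CpGs (1.76 per 100 bp) and has a GC content of 36.7%. Covered bases were richer in CpG than uncovered ones in 3 of 11 lists and richer in GC in 2 of 11. Across the 37 genes, CpG density against mean cover gave a Pearson r of -0.0514 and a Spearman rho of -0.136, and GC content gave 0.129 and 0.111. Gene length against the number of lists gave 0.627 and 0.529, and whether length itself accounts for this was not tested. These are descriptions across genes of 1 molecule that share peaks.

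Genes of the nucleus that serve the mitochondrial genome were looked up in the same lists. None of 31 genes of mitochondrial genome maintenance and transcription, among them Tfam, Polrmt and Polg, had a peak in any list, against 4.2% of all genes. Nuclear genes of oxidative phosphorylation were matched by the start of their symbols, which can also take in genes that do not encode subunits. Of 98 matched, 4 had a peak, each in 1 list: Atp5g3, Ndufa5 and Atp5s in control number 5 pool 1 and Ndufa13 in knockout number 7 pool 1. Of 11 genes of cytosine methylation and oxidation, Tet2 had 1 peak, in control number 5 pool 1 (chr3:133535885-133536084, fold 1.42). Of 10 loci of sorting and lineage genes, Ptprc (CD45) had 1 peak, in the same list (fold 2.37), and the remaining loci, Kit included, had none. With groups this small, none of these counts is set apart from that background. DNA peaks give no expression, so the labelled cell type and the knockout could not be checked by them.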

How the data were processed

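DNA immunoprecipitated for 5hmC was analysed as 12 peak lists without headers, 1 per library, deposited by the authors. Bowtie2, SAMtools, MACS2 and the build mm10 are named in the submitters' processing notes, with no versions or settings. How the inputs were used and the peak threshold are not given in the sources used here. The peak fold, deposited by the authors, is a linear ratio of summit to local background. Each peak also has a −log10 p-value and a −log10 q-value, as deposited by the authors. Their deposited score equalled 10 times −log10 p cut to a whole number and was not used further. The last deposited column is the offset of the summit. Peak names carry the word Nanog, which no label mentions, and were not used. Depth is not given.

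All chrM peaks were assigned to GENCODE M21 genes by 1 bp of overlap, and coordinates are 1-based. All 12 lists ended within the GRCm38 chromosome lengths. Summit fragments k, as whole numbers, and background λ were solved from fold = (k + 1)/(λ + 1) and the Poisson p. They were used in the 7 lists where at least 90% of peaks had a solved −log10 p within 0.001 of the deposited one. Nuclear copies were found with blastn 2.17.0. Python 3.11.15, numpy 2.4.6, pandas 2.3.3, scipy 1.17.1 and matplotlib 3.10.9 were used, and the routines were tested on simulated data. A library number was taken as 1 sample and its pools as repeats, from the titles alone, so that p-values measure only the spread between these libraries. Both rRNA genes, the 13 coding genes, the tRNA genes in most and in fewest lists (at most 5 each) and the genes under the strongest peaks were named by rule. The members, gene lists and rules were chosen with earlier results of these data known. Alternatives were stricter p and q limits, other measures of share, cover and fold, the median over pools, the pool as a block, each library number left out, and, added after seeing the data, control number 5 pool 3 left out and the share of length without it or without number 3.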

Additional observations from a re-analysis of the deposited data

Results flagged for a closer look

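The control list of number 5 in pool 3 lay far from the other 5 control lists on 2 measures. Its peaks covered 87.3% of the mitochondrial genome, and the nearest control list covered 38.6%. Its highest mitochondrial fold was 5.39, and the nearest was 2.55. Among the 8 groups of values examined, chance gives such a flag in about 1 of 20 if the values of a group are independent. The lists of a group were repeat immunoprecipitations of 2 library numbers, so that rate need not hold here.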

How the results depend on the processing

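Of 56 alternative values, 50 were counted as unchanged in direction, and 1 of these, the number of nuclear copies with a peak, compares no genotypes. It had no p-value, nor had any comparison in which a library number was left out or had no value. None of the other p-values passed 0.05. The test of 2 against 2 library numbers cannot pass it, whereas the permutations over 12 lists, which treat repeat immunoprecipitations as separate samples, could have. All 6 that reversed came from leaving out 1 library number. The difference in share (knockout minus control) ran from -35.3 to 1.08 percentage points over these, in covered length from -32.7 to 5.24, in genes from -15.5 to 3.17 and in highest fold from -1.50 to 0.441. The reversals were 1.08 for share without number 3, 1.48 for covered length and 3.17 genes without number 1, and 5.24, 1.33 genes and a fold of 0.441 without number 5. With the pool as a replicate block over all 12 lists as separate samples, the differences were -17.1 (p = 0.185, permutation within pools), -13.7 (p = 0.426), -6.17 genes (p = 0.454) and -0.457 in fold (p = 0.75). This changed no call. Without regard to pools, p ran from 0.130 to 0.708. With q under 0.05 they were -2, -13.4 and -5.67 genes, and no highest fold could be had because the knockout has no such peak. Though counted as unchanged in direction, these rested on control number 5 pool 3 alone. It held all 3 mitochondrial peaks at this limit, and without it no difference was left. For share, number 3 had no value, since its lists held no peak with q under 0.05. With p under 0.01 the differences were -4.26, -18.2, -8.83 genes and -0.213 in fold. That fold had no value from number 1, which had no mitochondrial peak with p under 0.01. Without control number 5 pool 3, and with no such limits, the differences were -17.3, -5.37, -3.92 genes and -0.0393. The number of nuclear copies with a peak was 1 at a minimum of 100 bp and at 200 bp. Peak numbers per list and 2 library numbers per genotype limit the precision.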
